A study of Mus musculus with 21 samples.

Results

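Dorsal skin from the second week of ultraviolet (UV) irradiation, when each exposure was 2 MED (minimal erythema doses), was compared with non-irradiated dorsal skin of week 1. The comparison held 6 of the 21 arrays of the series, all 3 titled UV week 2 and all 3 titled control week 1, and 40540 of the 45101 probe sets of the mouse array passed the filter on low intensity. No measured value was used to choose the arrays. The other 15 arrays came from control mice of week 8 and from mice irradiated for 1, 4, 6 or 8 weeks, 3 per group. All mice were female Hos:HR-1, an albino hairless strain, 6 weeks old on arrival and acclimated for 1 week. Irradiation was given 3 times per week under isoflurane with a lamp that emitted from 275 to 380 nm (peak 310 to 315 nm) behind a filter against UVC, and the dose was raised by 1 MED, or 100 mJ/cm2, each week up to 4 MED, so that an exposure of week 2 was 200 mJ/cm2. UV week 2 mice were 1 week further into the experiment than control week 1 mice, and that week of age cannot be told apart from UV within these 6 arrays. The interval between the last exposure and sampling is not given in the sources used here. Hairless mice of this kind grow hair in early life and lose it as the follicles degenerate, which limits them as a model of normal follicles.

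UVB is absorbed mainly in the epidermis, where keratinocytes answer with thickening, an altered keratin programme and the release of inflammatory mediators. Nucleic acids damaged by UV can be sensed in skin cells and can start type I interferon signalling, in which the complex ISGF3 binds a short promoter element, the interferon-stimulated response element, and switches on antiviral genes. The dermis holds mast cells, whose granules store tryptases and chymases, and the collagen and elastic fibres that wear down in photoaged skin. Hair follicles pass through cycles of growth and rest, and hair keratins are made during growth alone.

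The arrays were alike in overall brightness, with median intensities from 30.1 to 31.1 in the 6 compared, and log2 levels correlated between them at 0.977 to 0.994 across probe sets. Array 12 of control week 1 stood apart in the ratio of 3' to 5' probe sets of beta-actin, a sign of RNA quality, at 4.74 on the log2 scale against 2.37 and 2.55 in its group and 2.26 to 3.30 in UV week 2. The label of skin held: Krt14, a basal keratinocyte keratin, had log2 levels of 12.86 to 14.14, Krt10, a suprabasal keratin, 14.18 to 14.45, and Col3a1, a dermal collagen, 14.51 to 14.75 in the 6 arrays. Skeletal muscle was also present, with the muscle actin Acta1 at 13.61 to 14.19. In bulk skin, fewer cells of a type and less RNA per cell cannot be told apart.

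Differences are given as log2 of UV week 2 minus control week 1 from limma, fitted to all 21 arrays, with Benjamini-Hochberg adjusted p over all tested probe sets. With an adjusted p of 0.05 or less, 13 probe sets rose (0.0321% of those tested) and 12 fell (0.0296%). Before adjustment, 1199 (2.96%) on the upper side and 1365 (3.37%) on the lower side had a p under 0.05. Requiring also 2-fold and, as the study did, less than 1.5-fold between the 2 controls left 6 of 39801 up (0.0151%) and 4 down (0.01%). The 6 were a probe set of the Sprr2a copies, Retreg3, Tpsab1, Tcf23, the Chil3 and Chil4 probe set and 1 of Rsad2. The 4 were Krt77, Ppp1r3c, Tppp and 1 probe set of Lnx1. Arrays 224 and 225 of UV week 2 carried most calls: 4 of the 25 remained without array 224 and 3 without array 225, against 24 without array 222. Without control arrays 12, 13 and 16, 10, 7 and 14 remained. Those that passed whichever of the 6 arrays was left out were the brighter Sprr2a probe set, Retreg3 and Ppp1r3c. A fit to the 6 arrays alone called none, while 1526 probe sets on the lower and 1591 on the upper side had an unadjusted p under 0.05.

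**Figure D1:**
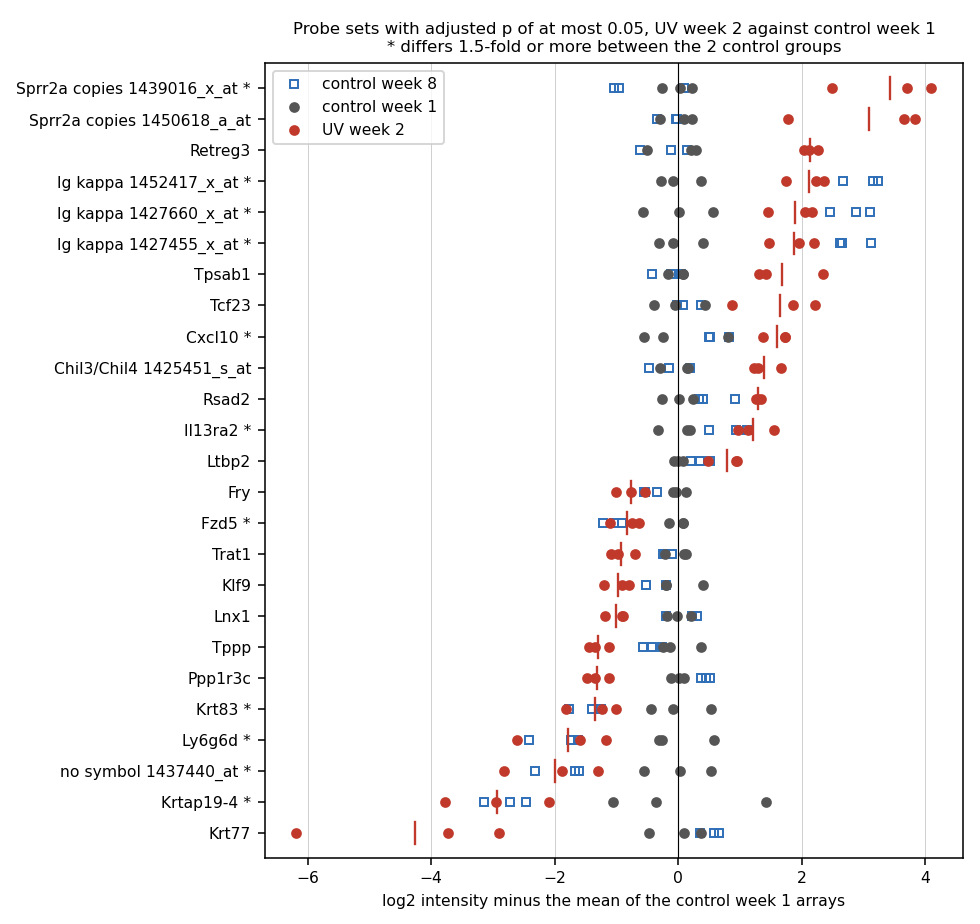
Log2 intensity of each of the 25 probe sets that passed, minus the mean of the control week 1 arrays, 1 point per array: control week 8 (squares), control week 1 and UV week 2, whose mean is the bar. An asterisk marks a probe set that differed 1.5-fold or more between the 2 controls; for Krt83, Fzd5, Ly6g6d and Krtap19-4 the UV week 2 points lie among those of control week 8, and for the immunoglobulin kappa probe sets below them.

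The interferon-stimulated genes were the group most uniformly higher against control week 1. Of 30 measured, none passed the adjusted test at its brightest probe set, as 0.0287% of 17403 genes did upward and 0.046% downward, but in 23 all 3 UV week 2 arrays lay above all 3 control arrays and in none all below, where 7.94% of all genes were separated upward and 6.9% downward. The median difference of the 30 was 0.73, against 0.01 over all genes. Their mean log2 level was 7.76, 7.95 and 7.88 in the UV week 2 arrays and 7.02, 6.66 and 7.27 in control week 1, so the groups did not overlap. It was 7.03 to 7.69 in control week 8, below the 3 UV week 2 arrays, and against that group 13 of the 30 were separated upward (background 12.8% upward and 10.7% downward) with a median of 0.54. With the beta-actin ratio as a covariate 5 of the 30 passed, in a fit that called 44 probe sets on either side of the 40540, and none of the 30 passed with quantile normalization or against control week 8.

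The response element was sought in RefSeq promoters (mouse build GRCm38.p6, 250 bases before to 50 after each start) as a pair of GAAA runs with any 2 bases (NN) between them, or of TTTC runs on the other strand; matches may overlap. It occurred in 3.44% of all 32851 promoters, or 3.99% of the 27025 genes that have one there, and in 12 of the 21 interferon-stimulated genes found in that table (57.1%). Of those 12, 9 were separated upward, and of the 9 without the element, 7 were. The matched stretch of 4 genes whose values follow is shown 5' to 3' on the strand of the gene, with the element in capitals and 20 bases on either side; the genes were chosen after their values were seen.
Rsad2, chr12:26456543-26456592, minus strand, element 120 bases before the start: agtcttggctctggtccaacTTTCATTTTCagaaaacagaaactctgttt
Ifit1, chr19:34640765-34640833, plus strand, elements 104 and 85 bases before: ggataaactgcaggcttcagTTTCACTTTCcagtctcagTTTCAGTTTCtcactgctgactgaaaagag
Ifit3, chr19:34583353-34583436, plus strand, elements 156 and 122 bases before: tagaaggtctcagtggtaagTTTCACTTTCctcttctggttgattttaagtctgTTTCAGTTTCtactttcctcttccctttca
Cxcl10, chr5:92349073-92349122, minus strand, element 213 bases before: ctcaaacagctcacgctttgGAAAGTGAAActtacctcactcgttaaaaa
A match of letters is a description of the promoter and was not tested for binding. Ifit1 and Ifit3 carry a pair of elements each, Rsad2 and Cxcl10 a single one.

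Ifit1, which binds viral RNA that lacks normal cap methylation, read 6.17, 5.35 and 6.16 in control week 1 and 7.78, 8.23 and 8.02 in UV week 2. The difference of 2.12 (SE 0.44) missed the threshold with an adjusted p of 0.0956 in limma. Ifit3, its partner, read 5.75 to 6.46 and 6.61 to 7.12, a difference of 0.92 (SE 0.28, adjusted p = 0.392). Usp18, the protease that removes ISG15 and restrains interferon signalling, went from 5.72 ± 0.25 to 7.30 ± 0.26 (SD, n = 3), a difference of 1.58 (SE 0.30, adjusted p = 0.0671). Oasl2, of the oligoadenylate synthetase family, was at 4.92 to 5.35 and 6.51 to 6.94, or 2.83-fold (adjusted p = 0.0813). In each of these 4 genes the groups were separated. Rsad2, the antiviral enzyme viperin, rose at 1 of its 3 probe sets, from 4.38, 4.62 and 4.12 to 5.63, 5.70 and 5.66 (1.29, SE 0.20, adjusted p = 0.0154). Its brightest probe set was separated as well but more scattered in the controls (7.28, 6.54 and 7.75 against 8.78, 8.75 and 8.71; 1.56, SE 0.45, adjusted p = 0.347). Its last probe set differed by 0.18. The Rsad2 call was lost without array 12, 16, 224 or 225 (adjusted p 0.0513 to 0.114). Ifi27l2a had the widest difference, 2.55, but it rested on control array 13 at 4.03 beside 11.26 and 12.06, and its groups overlapped.

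**Figure D2:**
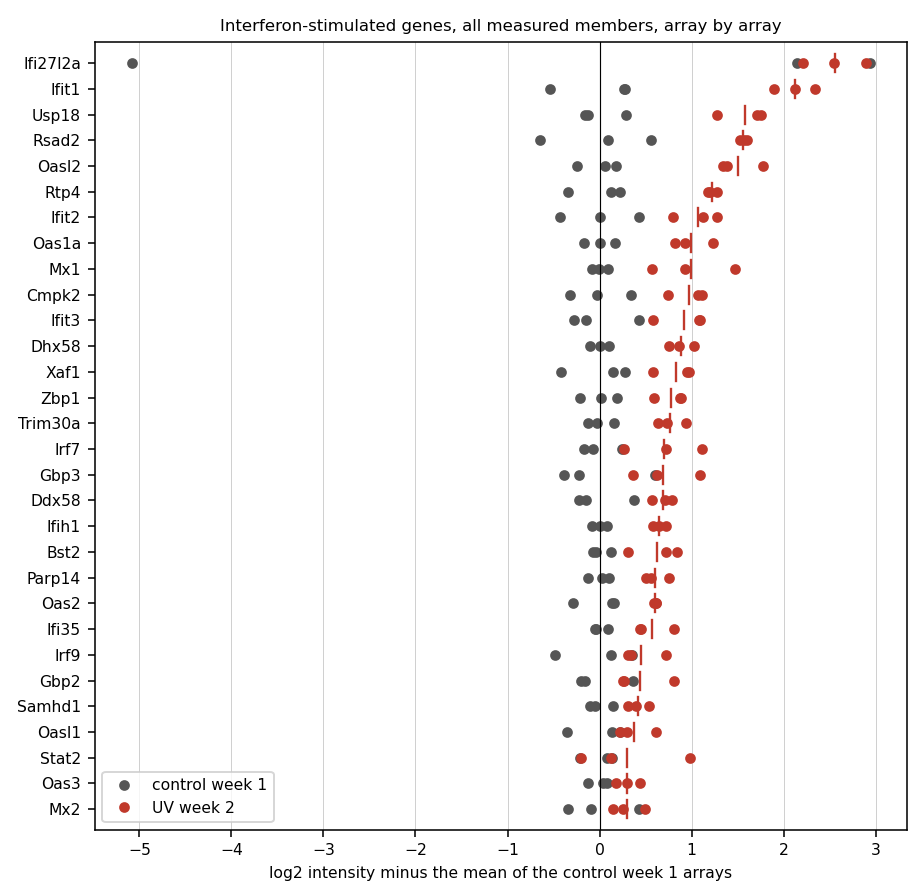
Log2 intensity of the 30 interferon-stimulated genes minus the mean of the control week 1 arrays, 1 row per gene and 1 point per array, for control week 1 and UV week 2. In 23 genes every UV week 2 point lies to the right of every control point; Ifi27l2a shows the single low control array.

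Among the genes that draw and mark T cells, Cxcl10, the ligand of the receptor Cxcr3, rose by 1.61 (SE 0.28, adjusted p = 0.0352), from 5.05, 4.75 and 6.10 to 6.67, 7.02 and 7.02. It was set aside by the rule on the controls, since control week 8 stood 0.61 above control week 1. Its call was lost without array 12, 13, 224 or 225 (adjusted p 0.130 to 0.241). The other Cxcr3 ligands were separated upward without passing: Cxcl11 by 1.14 (adjusted p = 0.396) and Cxcl9 by 0.93 (adjusted p = 0.803). Of 20 genes of this group, 1 passed and 7 were separated upward, with Gzma, a granzyme of cytotoxic lymphocytes, at 0.70. Cd3g, of the T cell receptor complex, was at -0.74 and its groups were separated downward. Trat1, a T cell receptor adaptor, fell by 0.92 at 1 probe set, from a mean log2 level of 3.70 to 2.78, low on these arrays. Its brighter probe set was at -0.08. The Trat1 call was lost without any one array but 222 (adjusted p 0.0704 to 0.268). Of 18 sensors of nucleic acids none passed and 7 were separated upward, among them Dhx58 by 0.88 and Adar, an RNA-editing enzyme, by 0.50. Dhx58, Zbp1, Ddx58 and Ifih1, all separated upward, are also on the list of interferon-stimulated genes. The sensor count therefore shares genes with that list and is not a separate result.

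In the epidermis the probe sets that rose were those of the Sprr2a copies, which encode small proline-rich precursors of the cornified envelope. The copies share probe sets, so no single copy can be named. The dimmer of 2 probe sets read 6.79, 7.31 and 7.18 in control week 1 and 8.87, 10.93 and 10.75 in UV week 2, a difference of 3.09 (SE 0.40, adjusted p = 0.00344), or 8.49-fold. The brighter one rose by 3.43 (SE 0.42, adjusted p = 0.00221), from 8.04, 8.52 and 8.33 to 10.79, 12.40 and 12.00. It was set aside by the rule on the controls, since control week 8 was at -0.63 against control week 1. Array 222 was the lowest of the irradiated arrays in both, yet above every control. Without array 225 the dimmer one missed the threshold (2.80, adjusted p = 0.0529). Against control week 8 both also rose, by 3.22 (adjusted p = 0.000932) and 4.07 (adjusted p = 0.000101). Other members of the family did not pass and lay on both sides of 0: Sprr2d (0.88, adjusted p = 0.411) was separated upward, Sprr1b (0.96, adjusted p = 0.860) overlapped, and Sprr2f (-1.13, adjusted p = 0.873) and Sprr2i (-0.92, adjusted p = 0.827) were lower on average and overlapped. Over 38 cornified envelope genes none passed at its main probe set, 7 were separated upward and 3 downward, and the 4 with a difference of 2-fold or more were all lower: Tchhl1 (-1.95, adjusted p = 0.295) and Lce3f (-1.05), both separated, and Lce3a (-1.30) and Sprr2f, which overlapped. Lce1m, at -0.93, was the third separated downward.

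Krt77, a keratin of resting suprabasal epidermis, fell by 4.27 (SE 0.73, adjusted p = 0.0352), to 0.0519 of the control intensity. It read 12.09, 12.94 and 12.66 in control week 1 and 9.66, 8.84 and 6.38 in UV week 2, separated, but with a wide spread under UV. Control week 8 was at 13.09 ± 0.16 (SD, n = 3), and the difference from it was -4.80 (adjusted p = 0.00523). The call against control week 1 was kept without array 222 and lost without any other (adjusted p 0.0583 to 0.222); without array 225 the difference was -3.31. Of the other 9 resting epidermal keratins none passed. Krt2 was separated downward at -0.85 (adjusted p = 0.162) at log2 levels of 2.81 to 4.31, and Krt10 (0.03), Krt1 (0.50), Krt5 (0.39) and Krt14 (0.57) overlapped. Of 8 keratins of wounded and fast-growing epithelia none passed, 5 overlapped with control week 1, 3 were separated downward from it and none upward. Krt6b (1.42), Krt16 (1.40) and Krt6a (0.88), made in wounded epidermis, were among those that overlapped. The 3 separated downward were Krt18 (-0.93, adjusted p = 0.433), Krt8 (-0.77) and Krt19 (-0.17), which also mark simple epithelia. Control week 8 stood at -0.70, -0.95 and 0.35 against control week 1 in these 3. Against control week 8, 3 of the 8 keratins were separated upward and 1 downward, and none passed. Over all genes 12.8% were separated upward from control week 8 and 10.7% downward, the latter near the share of these keratins. In Krt16 the arrays were 8.43, 10.67 and 9.65 against 9.63, 11.79 and 11.52, so that array 12 of the controls and array 222 of UV week 2 were each the lowest of their group.

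Tpsab1, the mast cell tryptase, was at 4.93, 5.17 and 5.18 in control week 1 and at 6.39, 6.51 and 7.44 in UV week 2, and rose by 1.69 (SE 0.27, adjusted p = 0.0199). Tpsb2, the second tryptase, followed with 6.24, 6.61 and 6.77 against 7.41, 7.41 and 7.88, a difference of 1.02 (SE 0.30, adjusted p = 0.355). Both were separated from control week 1 and from control week 8. Of 14 mast cell genes, Tpsab1 passed and 4 were separated upward, the other 3 being Tpsb2, Mcpt8 (0.47), a basophil protease, and Cma1 (0.46), a chymase. The defining markers Cpa3 (-0.10), Kit (-0.05) and Ms4a2 (-0.03), the protease, receptor and IgE receptor subunit of mast cells, overlapped with the controls. The mean log2 level of the 14 was 6.74 to 6.87 in control week 1 and 6.88 to 7.27 in UV week 2. Tpsab1 stood at -0.12, 0.02, -0.17 and -0.26 against control week 1 after 1, 4, 6 and 8 weeks of UV. The part of mast cell number in the tryptase difference was not tested. The Tpsab1 call was lost without array 12, 13, 224 or 225 (adjusted p 0.0611 to 0.144).

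Hair genes made up most of the lowest differences, and the irradiated arrays resembled control week 8 in them. Of 12 hair shaft keratins 11 were separated downward and 1, Krt83, passed. Of 26 hair keratin-associated proteins 25 were separated downward and none passed at its main probe set, and of 13 inner root sheath genes 11 were separated downward and none passed. The medians were -1.68, -2.13 and -1.34. Control week 8 minus control week 1 gave -1.61, -1.75 and -1.31 for the same lists, and UV week 2 minus control week 8 gave 0.02, -0.14 and 0.14, with no member separated and none passing. These comparisons share control arrays. Krt33a, a hair shaft keratin, read 12.26, 11.49 and 11.57 in control week 1, 10.62, 8.03 and 9.95 in UV week 2, and 9.59 ± 0.84 (SD, n = 3) in control week 8. Krtap19-2 and Krtap19-4, further keratin-associated proteins, were not on that list of 26. Krtap19-2 had the lowest separated difference of all genes, -4.70 (adjusted p = 0.161), from 11.65, 9.29 and 10.01 to 7.46, 3.60 and 5.80, beside 6.01 ± 1.22 (SD, n = 3) in control week 8. Krt83 fell by 1.35 (adjusted p = 0.0352) and Krtap19-4 by 2.94 (adjusted p = 0.0364) at its main probe set, and both were set aside by the rule on the controls, being 0.12 and -0.16 against control week 8. Their calls were lost without array 12, 224 or 225, that of Krt83 also without 13 and that of Krtap19-4 without 16 (adjusted p 0.0616 to 0.237). Array 224 was the lowest in hair genes, and without it the 3 medians were -1.17, -1.49 and -0.81.

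Of 31 regulators of the follicle none passed and 8 were separated downward. Fgf5, the signal that ends hair growth, was at -1.12 (adjusted p = 0.443), and Lhx2, of follicle stem cells, at -1.04 (adjusted p = 0.160). In Lhx2 control week 8 (5.78) was near UV week 2 (5.67), with 6.71 in control week 1. S100a3, a calcium-binding protein of the hair cuticle, was likewise at -1.69 against control week 1 and -0.09 against control week 8. It was already counted above, on the inner root sheath list. Tesc, tescalcin, differed from this: it read 9.04, 9.02 and 8.99 in control week 1, 8.32, 7.61 and 7.63 in UV week 2 and 9.33 ± 0.23 (SD, n = 3) in control week 8, with differences of -1.16 (adjusted p = 0.288) and -1.47 (adjusted p = 0.0652).

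**Figure D3:**
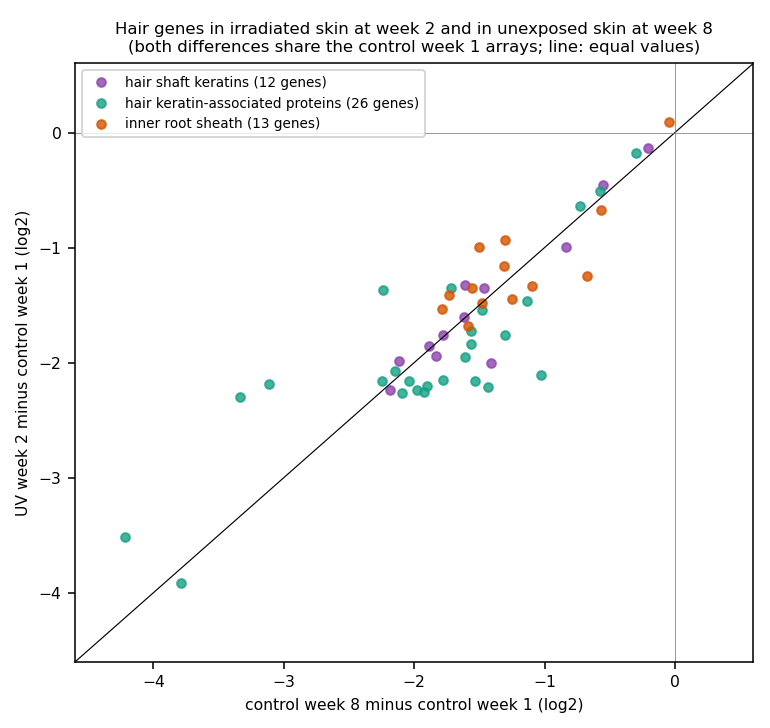
Each point is 1 of 51 hair shaft keratin, keratin-associated and inner root sheath genes: control week 8 minus control week 1 on the horizontal axis and UV week 2 minus control week 1 on the vertical axis, both log2, with the line of equality. Both axes share the control week 1 arrays, so the points are not independent along the line; nearly all lie below 0 on both axes.

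The 3 immunoglobulin kappa probe sets, which several kappa segments share, lay between the 2 controls. They rose by 2.11, 1.88 and 1.89 (adjusted p = 0.0130, 0.0158 and 0.0352), while control week 8 was higher still, 3.02, 2.80 and 2.81 above control week 1, and every UV week 2 array was below every control week 8 array in them. All 3 calls were lost without array 13, 224 or 225, and that of the last also without 16 (adjusted p 0.0726 to 0.241). Jchain, which joins polymeric antibodies, was at 1.70 (adjusted p = 0.162) against 3.19 for control week 8. Igha, the IgA heavy chain, was at 1.56 (adjusted p = 0.182) against 2.07. The 9 B and plasma cell genes had mean log2 levels of 5.75 to 6.10 in control week 1, 6.39 to 6.52 in UV week 2 and 6.55 to 6.72 in control week 8.

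Of 21 acute phase and antimicrobial genes none passed, 6 were separated upward and 2 downward. Wfdc12, an antibacterial protease inhibitor, read 9.03, 9.80 and 9.46 against 10.48, 11.52 and 12.16 (1.96, SE 0.41, adjusted p = 0.101); against control week 8, at 7.63, it rose by 3.75 (adjusted p = 0.000217). Saa3 (1.51), Lcn2 (1.01) and Reg3g (1.47) were also separated upward, while the alarmin subunits S100a8 (-0.07) and S100a9 (0.14) were not. The probe set shared by Chil3 and Chil4, chitinase-like proteins of activated macrophages and epithelia, rose by 1.40 (SE 0.24, adjusted p = 0.0352), from 4.03, 4.48 and 4.47 to 5.55, 5.62 and 5.99. Its call was lost without any array but 222 (adjusted p 0.0581 to 0.241). Chil3 at its own probe set was at 1.73 (adjusted p = 0.204). Reg1, a lectin of regenerating epithelia, had the highest separated difference of all genes, 2.77 (SE 0.58, adjusted p = 0.101), from 6.12, 5.04 and 5.29 to 7.29, 7.67 and 9.79. Against control week 8, 4 of the 21 acute phase and antimicrobial genes passed upward, Wfdc12 among them, and none downward (all genes 0.126% and 0.161%). From that group 8 of the 21 were separated upward and 4 downward, where 12.8% and 10.7% of all genes were.

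Of 23 interleukin-1 family genes and neutrophil chemokines, 4 were separated upward (Cxcl3 1.86, Cxcl5 1.55, Il1b 0.95, Il18 0.68) and Il1r2, the decoy receptor, downward (-0.78); none passed. Markers of the cells these could bring were highest in array 225: the mean log2 level of 15 neutrophil genes was 6.24 to 6.28 in control week 1 and 6.39, 6.44 and 7.01 in UV week 2, and that of 25 macrophage and monocyte genes was 8.56 to 8.90 and 8.71 to 9.43. Of these, 5 neutrophil and 4 macrophage genes were separated upward, Fcgr1 by 1.27 and Itgax by 1.11, and 2 macrophage genes downward, Cd163 by -0.74 among them. Some members, such as Stfa2l1 of the neutrophil and Chil3 of the macrophage genes, are also on the acute phase and antimicrobial list. The counts therefore share genes and are not separate results. The part of neutrophils and macrophages in the inflammatory differences was not tested. Against control week 8, 1 of the 23 genes above was separated upward and 2 downward. Of the neutrophil genes 2 were separated upward from it, of the macrophage genes 3, and none downward (all genes 12.8% and 10.7%). In that comparison 1 macrophage gene passed (0.126% of all genes upward). Control week 8 levels, 6.10 to 6.48 for neutrophil and 8.44 to 9.19 for macrophage genes, overlapped those of UV week 2. Il13ra2, the decoy receptor for interleukin-13, rose by 1.22 (SE 0.20, adjusted p = 0.0273), with control week 8 at 0.85 above control week 1, and its call was lost without array 13, 16, 224 or 225 (adjusted p 0.0726 to 0.222). Of 15 Langerhans cell and class II genes none passed, 3 were separated upward and 1 downward, the latter near the 6.9% of all genes. The 1 downward was Cd207, langerin, at -0.85 (adjusted p = 0.401). H2-Eb1 read 9.66, 6.50 and 6.64 in control week 1 and 10.28, 10.03 and 10.74 in UV week 2, where its companion H2-Aa was at -0.08.

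Of 22 matrix metalloproteinases, related proteases and their inhibitors, 10 were separated upward and 3 downward, and none passed. Mmp13, a collagenase, read 5.84, 6.39 and 7.26 against 7.64, 8.31 and 8.60 (1.69, SE 0.37, adjusted p = 0.116), but control week 8 was at 8.87. Mmp3, stromelysin, was at 1.62 (adjusted p = 0.143), with control week 8 at 0.97. Adamts15, which cleaves proteoglycans (1.35, adjusted p = 0.157), and the inhibitor Timp1 (0.93, adjusted p = 0.322) were separated from both controls, with control week 8 within 0.10 of control week 1 in each. Timp4 was at -1.15 (adjusted p = 0.669). The substrate genes differed little: 26 collagens had a median of 0.10, with 5 separated upward and 1 downward, Col1a1 at -0.22 and Col3a1 at 0.03. Ltbp2, which binds elastic fibre components, was the 1 of 24 elastic fibre and small proteoglycan genes to pass, and rose by 0.79 (SE 0.14, adjusted p = 0.0352), from 7.13, 7.21 and 7.06 to 7.61, 8.06 and 8.08. Its call was lost without any array but 222 (adjusted p 0.103 to 0.280).

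The only decrease that passed whichever of the 6 arrays was left out was Ppp1r3c, which directs protein phosphatase 1 to glycogen. It fell by 1.31 (SE 0.16, adjusted p = 0.00221), to 0.402 of the control, from 11.60, 11.68 and 11.46 to 10.23, 10.46 and 10.11, and by 1.76 against control week 8 (adjusted p = 7.59e-05). Its second probe set was at -0.39. Tppp, which promotes tubulin polymerisation, fell by 1.30 (SE 0.19, adjusted p = 0.0130), from 5.90, 5.80 and 6.41 to 4.92, 4.58 and 4.70, and lost the call without array 224 or 225 (adjusted p = 0.0953 and 0.114). Lnx1, a ubiquitin ligase that acts on Numb, fell by 1.00 at its dimmer probe set (SE 0.15, adjusted p = 0.0139) and was at -0.82 at its brighter probe set (adjusted p = 0.101); the call was lost without array 13, 224 or 225 (adjusted p 0.0574 to 0.143). Klf9, a Krüppel-like factor induced by glucocorticoids, fell by 0.97 at 1 probe set (adjusted p = 0.0352), whereas its other 5 probe sets lay between -0.46 and 0.21; that call was lost without any array but 16 (adjusted p up to 0.268). Fry, a scaffold of cell polarity, fell by 0.77 (adjusted p = 0.0352), and lost the call without any array but 222 (adjusted p 0.0616 to 0.293).

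Retreg3, an endoplasmic reticulum autophagy receptor, rose at 1 of its 3 probe sets by 2.14 from 4.13, 4.84 and 4.92 to 6.66, 6.74 and 6.89; the others were at 0.03 and 0.12. Tcf23, a basic helix-loop-helix factor, rose by 1.65 (SE 0.30, adjusted p = 0.0455), from 4.01, 4.84 and 4.36 to 5.27, 6.62 and 6.26, a call lost without any array but 222 (adjusted p 0.0726 to 0.293). The remaining probe sets that passed were all set aside by the rule on the controls. Fzd5, a Wnt receptor, fell by 0.83 and Ly6g6d by 1.79, with 0.23 and 0.13 against control week 8, and a probe set with no gene symbol fell by 2.00, with control week 8 at -1.87. Those 3 lost the call without array 12, 13, 224 or 225, Ly6g6d also without 16 (adjusted p 0.0640 to 0.234).

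Ptgs2 and some immediate early and EGF receptor family genes were lower, none past the threshold against control week 1. Most members of both lists overlapped with control week 1. Of 30 immediate early and AP-1 genes none passed and 6 were separated downward, among them Fos, from 12.48, 12.88 and 12.43 to 11.94, 11.14 and 11.68 (-1.01, adjusted p = 0.614), Fosb (-1.05) and Dusp1 (-0.67); control week 8 was at -1.02 in Fos and -0.88 in Fosb. Of 13 genes of the EGF receptor family and its ligands none passed and 4 were separated downward: Epgn (-0.97, adjusted p = 0.143), the feedback inhibitor Errfi1 (-0.89, adjusted p = 0.151), Tgfa (-0.44) and Egfr (-0.38). Errfi1 and Tgfa fell against control week 8, by 1.37 (adjusted p = 0.00512) and 0.65 (adjusted p = 0.0455). Ptgs2, the inducible prostaglandin synthase, was separated downward at -1.39 (adjusted p = 0.259).

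In the other tissue groups no member passed at its main probe set. Over all genes 7.94% were separated upward from control week 1 and 6.9% downward. The p53 targets separated downward were near the second share. Of 42 cell cycle genes 10 were separated upward, Tk1 by 0.75. Against control week 8, 26 of the 42 were separated upward, where 12.8% of all genes were, and none passed. Of 32 p53 targets 6 were separated upward and 2 downward from control week 1, with Cdkn1a at 0.59 (adjusted p = 0.860) and Mdm2 at 0.39. Of 33 antioxidant genes 7 were separated upward, such as Sod3 (0.88), and 6 downward, such as Mt4 (-0.98). Of 20 cholesterol synthesis genes 6 were separated upward with a median of 0.41, and control week 8 gave 0.42. Skeletal muscle genes were separated downward in 7 of 22, with mean log2 levels of 11.87 to 12.32 in control week 1 and 11.91, 11.57 and 11.29 in UV week 2. No Schwann cell or red blood cell gene was separated.

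**Figure D4:**
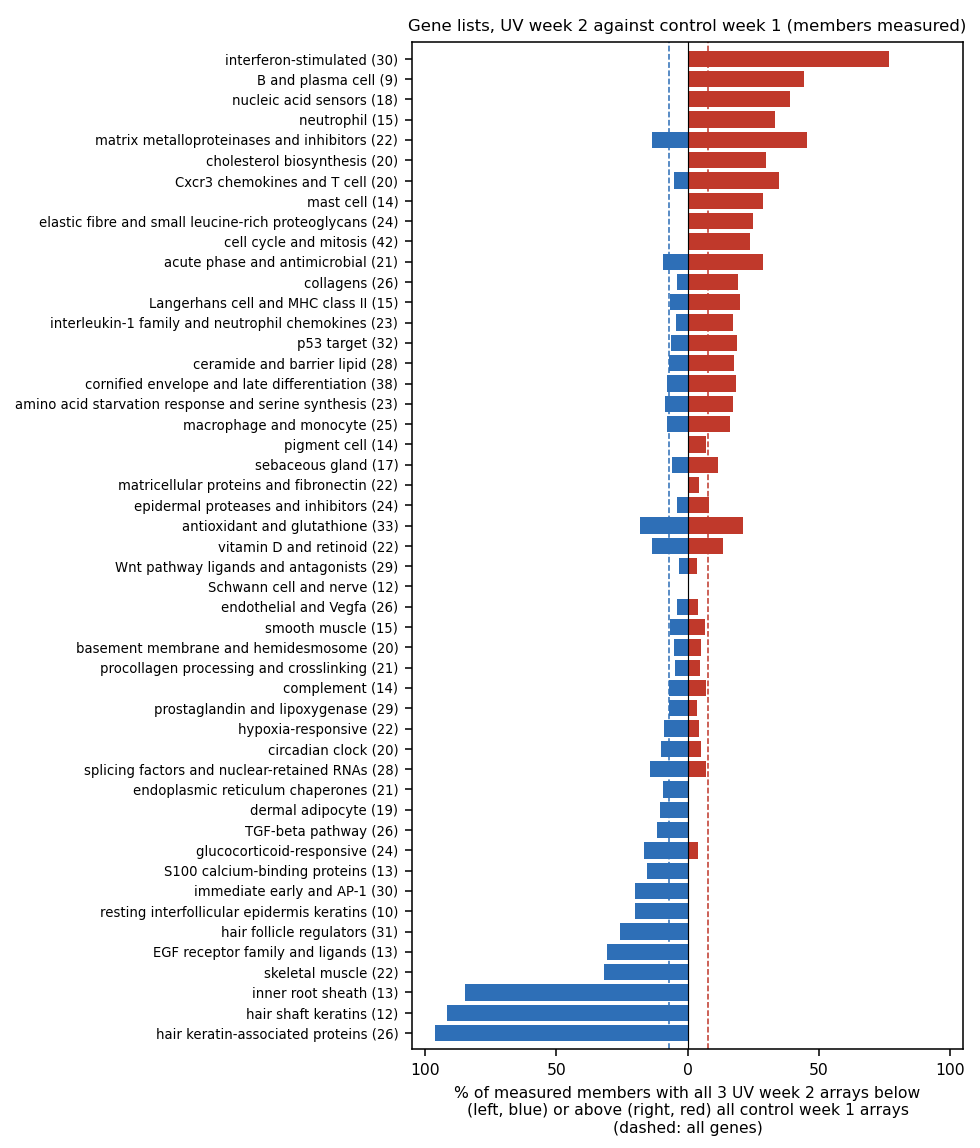
Share of the measured members of each gene list in which all 3 UV week 2 arrays lay below (left) or above (right) all 3 control week 1 arrays, for lists with at least 9 members; the dashed lines are the shares over all genes, 6.9% and 7.94%. Hair lists stand far out on the left and interferon-stimulated genes on the right.

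The neighbouring weeks share the same control arrays, and their own values for the leading genes are given side by side. After 1 week, at 1 MED, Krt77 was at -2.08, the dimmer Sprr2a probe set at 0.36, Cxcl10 at 1.04 and Ppp1r3c at -1.06 against control week 1. After 4 weeks, at 4 MED, the same were at -3.53, 1.36, 1.87 and -0.89. Krt77 was lower still after 6 and 8 weeks, at -6.24 and -6.00, whereas the Sprr2a probe set was at 0.73 and 1.07 and thus highest in week 2. The interferon-stimulated median was 0.43, 0.73, 0.53, 0.74 and 0.92 after 1, 2, 4, 6 and 8 weeks. Tested directly in limma, week 2 against week 1 gave 1 probe set that fell (0.00247%) and 4 that rose (0.00987%), as against 11.1% and 11% before adjustment: Krtap19-4 at -3.25, both Sprr2a probe sets at 2.70 and 2.72, Tpsab1 at 1.80 and Cxcl16, a chemokine of epithelia and macrophages, at 0.81. That count rested on single arrays. Without array 116 of UV week 1 there were 664 lower and 832 higher. Without array 114 of UV week 1 or array 225 of UV week 2 none passed. The beta-actin ratio was 4.88 and 4.39 in arrays 112 and 114 of UV week 1 but 2.71 in array 116. With that ratio as covariate 1 fell and 2 rose, and 1973 on the lower and 2474 on the upper side had an unadjusted p under 0.05. The part of RNA quality in the week 1 comparison was not tested. Against week 4 none passed, though 1278 (3.15%) on the lower and 1122 (2.77%) on the upper side had an unadjusted p under 0.05 (0% after adjustment); the 2-group fit gave none either, and leaving out array 334 of UV week 4 gave 33 higher. Krt77 differed from week 1 by -2.19 (adjusted p = 0.178) and from week 4 by -0.74, neither past the threshold.

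**Figure D5:**
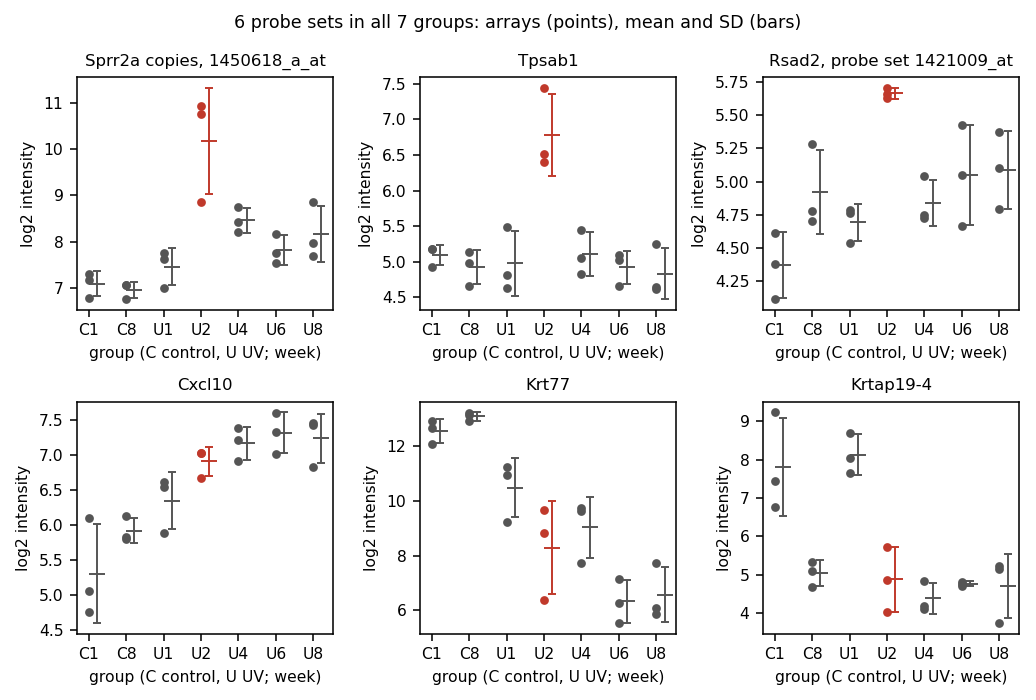
Log2 level of 6 probe sets in all 7 groups, 1 point per array with the group mean and SD (n = 3). The dimmer Sprr2a probe set and Tpsab1 have their highest mean in UV week 2, the mean of Krt77 is lowest in UV weeks 6 and 8, and Krtap19-4 is low in control week 8 as well as in UV weeks 2 to 8.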

How the data were processed

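RNA from dorsal skin was hybridised to Affymetrix mouse genome arrays. The authors deposited normalized linear intensity values per probe set; their methods name the Microarray Suite 5 algorithm and the submitters' processing notes name RMA, so the summarisation is not settled here. Log2 of the deposited intensity (floor 1) was fitted with limma 3.58.1 in R 4.3.3, 1 mean per group over 21 arrays, with no further normalization. Probe sets at or above the 20th percentile in at least 1 array were kept after 64 control probe sets were removed. Calls, 2-fold with an adjusted p of at most 0.05, left out 739 probe sets that differed 1.5-fold or more between the 2 controls. A gene was read at its 1-symbol probe set of highest mean (32317 probe sets had 1 symbol, 853 several and 7370 none). "Separated" means that the 3 arrays of one group lie beyond the 3 of the other. Each list count of separated genes is to be read beside the shares over all genes. Against control week 1 these were 7.94% upward and 6.9% downward, and against control week 8 they were 12.8% and 10.7%. Some counts were near them, such as those of cornified envelope and macrophage genes downward. Genes named are those passing the test, the highest and lowest separated genes, and members of gene lists. Gene lists and members were chosen with earlier results of these data known. By the methods each group was 3 mice, in 6 groups where the labels give 7. The p-values set each difference against a spread between arrays within groups, estimated over all 21 arrays. Alternatives covered the intensity filter, quantile normalization, 1 probe set per gene, a trended robust prior, the beta-actin ratio, the 2 groups alone, the baseline and each array left out. The procedure was tested on simulated data.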

Additional observations from a re-analysis of the deposited data

Results flagged for a closer look

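In all, 5 results differed between the second and the first week of UV in limma's direct test of one week against the other. Tpsab1 was higher in week 2 by 1.80 (adjusted p = 0.0447), the dimmer Sprr2a probe set by 2.72 (adjusted p = 0.0447), the brighter one by 2.70 (adjusted p = 0.0479) and Cxcl16 by 0.81 (adjusted p = 0.0479). Krtap19-4 was lower, at -3.25 (adjusted p = 0.0479). Groups of 3 arrays were too small to test for single outlying arrays.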

How the results depend on the processing

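No paired analysis was possible because the array numbers differ between groups. The counts for UV week 2 against control week 1 (4 called down, 6 called up, 12 lower and 13 higher at any fold) became 2 up, 7 lower and 6 higher with quantile normalization; 2 up and 5 higher with 1 probe set per gene; 11, 16, 44 and 44 with the beta-actin ratio as covariate; and 0 in each when the 2 groups were fitted alone (before adjustment 1526 on the lower and 1591 on the upper side had p under 0.05). Without the exclusion by the controls 8 were called down and 12 up, and at 2-fold without a test 31 down and 94 up. Against the mean of both controls the counts were 7, 14, 32 and 35, and against control week 8, a baseline added after seeing the data, 11, 13, 44 and 39. Leaving out 1 array gave 1 to 12 down, 1 to 11 up, 1 to 31 lower and 2 to 23 higher. At 2-fold, UV week 2 against UV week 1 (1 lower, 3 higher) gave 0 lower without the filter or at the 50th percentile, 0 and 0 with quantile normalization or the trended robust prior (with 4258 and 4467 probe sets on the lower side, 3545 and 4247 on the upper, at p under 0.05 before adjustment), 1 higher with 1 probe set per gene, 0 higher with the 2 groups alone, and 0 to 78 lower and 0 to 437 higher without 1 array. Against UV week 4 (0 and 0) there were 3 higher with 1 probe set per gene, 6 with the beta-actin ratio, and 0 lower and 0 to 32 higher without 1 array. The cause of these moves was not tested beyond the fewer arrays or probe sets that a setting holds.

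With control week 8 as baseline the sign turned for Fzd5 (0.23), Krt83 (0.12), Ly6g6d (0.13), Krtap16-3 (0.71), the 3 kappa probe sets (-0.91, -0.92 and -0.92), Jchain (-1.49), Igha (-0.51) and Mmp13 (-0.68). Against UV week 4, Krt77 ranged from -1.42 to 0.21 without 1 array, positive without array 225, and Ifit1 from -0.0056 to 0.48, negative without array 334. None of the other gene results recomputed under these settings changed direction. The median of all genes stayed between -0.01 and 0.03. With 3 arrays a group, the number of arrays limits the precision.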
